A study of Homo sapiens with 8 samples.

Results

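The 36 genes described here encode glycolytic enzymes, sugar and lactate carriers, regulators of glycolytic flux, and components and known target genes of the hypoxia-inducible factor (HIF) pathway. They were chosen by name, and all 36 had a row among the 25369 genes of the count and FPKM tables. RNA-seq was performed on LX-2, an immortalized human hepatic stellate cell line of wild type genotype, cultured on fibronectin-coated polyacrylamide hydrogels in serum-containing medium. Cells were kept for 2 or 4 days on either of a pair of matrices, one soft at 2 kPa and one stiff at 40 kPa, which gave 4 conditions with 2 libraries each and 8 libraries in all. The soft gel stands for normal and the stiff gel for cirrhotic liver in the study's design. The model is a single line, and no uncultured or plastic-grown cells were sequenced in these libraries. The paper describes 2 independent experiments for each category. The labels number the libraries of a condition and do not say how the cultures were separated, so the p-values measure the spread between these libraries.

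Glycolysis splits glucose into pyruvate in the cytosol, and lactate dehydrogenase converts pyruvate to lactate, which leaves the cell through monocarboxylate carriers. The HIF transcription factors pair an oxygen-labile alpha subunit (HIF1A or EPAS1) with a stable partner (ARNT). When oxygen is plentiful, prolyl hydroxylases of the EGLN family mark the alpha subunit for removal by the VHL complex, so much of HIF activity is set at the protein level, which RNA-seq does not measure. Many glycolytic genes, along with VEGFA, ADM, NDRG1 and others, are classical HIF targets, and a shift towards glycolysis is known in stellate cells that become myofibroblasts.

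Library totals ranged from 23257314 to 27263935 counts at 2 days and from 19955975 to 21939634 counts at 4 days, so depth moved with culture time. The pair of libraries from the stiff matrix at 4 days stood apart from each other: the SD of their log2 difference over all genes tested was 0.752, against 0.28 to 0.423 in the other conditions. Day went along with base composition, since the Spearman correlation between the 4-day effect and GC content over 13158 genes was -0.528. Pseudogenes, whose reads can be shared with their parent genes, also moved with day: 141 of 273 tested were lower at 4 days and 17 were higher, as a mean over the matrices. Whether the libraries of the 2 days were prepared or sequenced together is not given in the sources used here, so day and such a difference cannot be told apart. Of the 13 stellate cell and fibroblast markers, VIM, TAGLN and COL1A1 were abundant, whereas DES, LRAT and DCN had under 10 counts in every library. COL1A2, GFAP, LUM and RGS5 reached no more than 0.965 FPKM in any library. COL3A1, PDGFRB and ACTA2 lay between 0.962 and 10.3 FPKM. Summed hepatocyte markers lay between 1.24 and 2.99 FPKM, epithelial markers between 0.106 and 0.544 FPKM, and endothelial markers between 0.345 and 0.913 FPKM. Leukocyte markers summed to 45.4 to 63.9 FPKM, of which CD68, a lysosomal protein, held 45.2 to 63.4 FPKM. Of these lists, 1 leukocyte and 1 endothelial marker were called higher at 4 days on the mean of both matrices. ALB, APOA1, APOB, TTR, CYP3A4, EPCAM and CDH1 were all under 10 counts in every library.

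Between 2 and 4 days, VEGFA, DDIT4 and PFKFB4 showed the largest called decreases among these genes, and LDHB, BNIP3L and, on the stiff matrix, ADM the largest called increases. The set moved in neither direction as a whole. The median log2 fold change of the 34 genes that could be tested was -0.03 on the soft matrix, against 0.02 over all 14570 genes tested, and 0.00 on the stiff matrix, against 0.03. On the soft matrix, 6 genes were called higher and 7 lower by edgeR's quasi-likelihood test, with p-values adjusted after Benjamini and Hochberg over all genes and a threshold of 0.05. Of all genes tested, 14.1% were called higher and 13.3% lower in that comparison. On the stiff matrix, 4 genes were called higher and 8 lower, where 14.0% and 13.7% of all genes were called. Averaged over the matrices, 7 rose and 10 fell, while the background was 24.3% higher and 21.9% lower. The genes that rose were thus called about as often as any gene. For the decreases, 10 of 34 stands beside 21.9% of all genes, and no test of that difference was made.

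These counts depended on single libraries. The share of all genes called in each fit below is not given here. The counts therefore show only that the calls moved, and not that the set differed from other genes. Without the first 4-day library on the stiff matrix they were 7 higher and 13 lower for the soft and 10 higher and 11 lower for the stiff matrix. Without the second they were 6 and 13 for the soft and 5 and 12 for the stiff matrix. Leaving out any one of the 6 other libraries kept the divergent pair in the fit and left 0 to 1 higher and 2 to 3 lower on the soft matrix, and 0 to 3 higher and 2 to 4 lower on the stiff matrix.

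On both matrices, BNIP3L, LDHB and SLC2A3 were called higher, and DDIT4, NDRG1, PFKFB4, PFKP, SLC16A3 and VEGFA lower. The share of all genes called in the same direction on both matrices is not given here. The agreement is therefore not read as a trait of the set. In CPM, the counts scaled to a common library size with TMM factors, all 4 libraries at 4 days lay above all 4 at 2 days for 6 genes, where 24.0% of all genes did so, and below them for 13 genes, where 22.4% of all genes did so. Of the glycolytic enzymes, HK1, HK2, GPI, PFKM, ALDOA, ALDOC, TPI1, GAPDH, PGK1, PGAM1 and ENO1 were called in no comparison. The share of all genes called in no comparison is not given here either. EGLN3 and CA9 could not be tested: EGLN3 had 1 to 4 counts and CA9 0 to 2 counts per library.

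**Figure D1:**
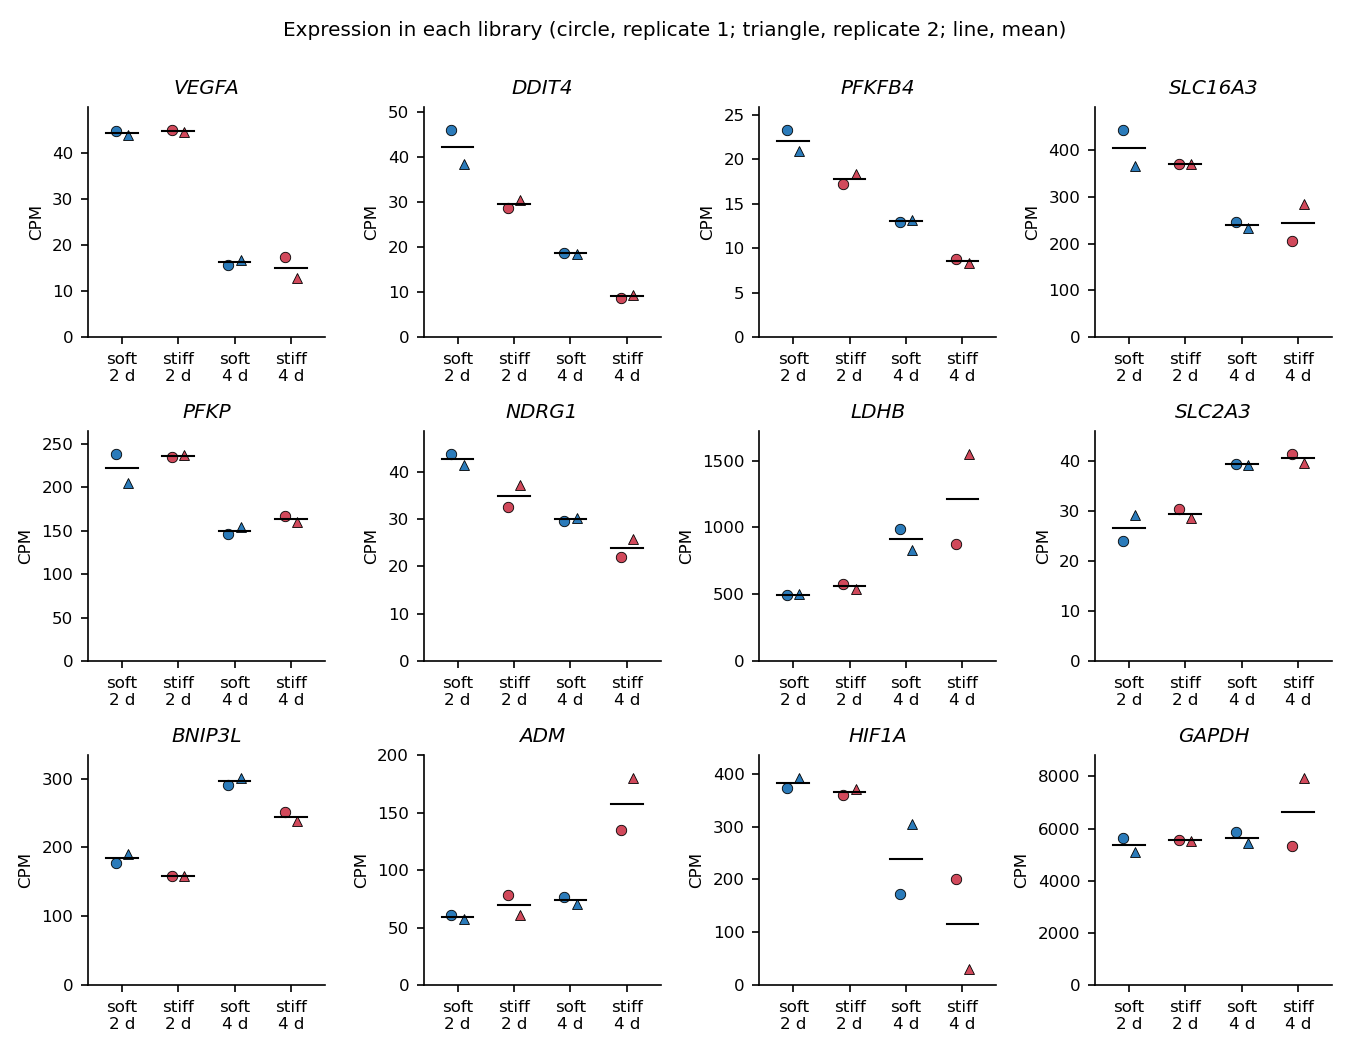
CPM (counts scaled to library size with TMM factors) of 12 genes in each of the 8 libraries, by matrix and day; circles are the first and triangles the second library, blue is the soft and red the stiff matrix, and lines are means. VEGFA, DDIT4, PFKFB4, SLC16A3, PFKP and NDRG1 are lower in every 4-day library than in every 2-day library, LDHB, SLC2A3 and BNIP3L are higher, and the libraries from the stiff matrix at 4 days are far apart for HIF1A (201 and 30.1 CPM), LDHB and GAPDH.

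Of the oxygen-sensing machinery, HIF1A was at 373 and 392 CPM on the soft and 359 and 372 CPM on the stiff matrix at 2 days. At 4 days it was at 173 and 304 CPM on the soft matrix and at 201 and 30.1 CPM on the stiff matrix. Every 4-day library thus lay below every 2-day library, and the second library of the stiff matrix stood far below the rest. The log2 fold change with time was -0.68 ± 0.69 (SE, adjusted p = 0.487) on the soft matrix and -1.66 ± 0.70 (adjusted p = 0.114) on the stiff matrix, so no call was made. It was called on both matrices without either library of that pair: the stiff-matrix value was -3.60 (adjusted p = 1.53e-09) without the first and -0.87 (adjusted p = 0.00201) without the second. The antisense transcript HIF1A-AS1 has its own row, and without a stated strand setting their reads cannot be told apart.

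EPAS1, the other alpha subunit, was not called with time on either matrix. It ranged from 84.4 to 105 CPM at 2 days and from 52.1 to 118 CPM at 4 days. EGLN1, the main prolyl hydroxylase, was at 55.4 and 55.5 CPM on the soft and 62.5 and 59.3 CPM on the stiff matrix at 2 days. At 4 days it was at 80.1 and 81.8 CPM on the soft and 71.5 and 64.5 CPM on the stiff matrix. All 4-day libraries lay above the 2-day libraries, and those of the soft matrix were the highest. EGLN1 was upregulated with time on the soft matrix (log2 fold change 0.55 ± 0.12, adjusted p = 0.0167) and not called on the stiff matrix (0.16 ± 0.12, adjusted p = 0.368). It kept its call on the soft matrix with an offset for gene length and GC content, and in 2 of the 8 fits that each left out 1 library.

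Among HIF target genes, VEGFA, the secreted growth factor that drives vessel growth, decreased on both matrices. It was at 44.6 and 43.8 CPM on the soft and 44.9 and 44.5 CPM on the stiff matrix at 2 days, and at 15.7 and 16.7 CPM on the soft and 17.4 and 12.7 CPM on the stiff matrix at 4 days. The libraries of the 2 days were far apart and those of the 2 matrices were not. The log2 fold change was -1.45 ± 0.17 on the soft matrix (adjusted p = 0.00221) and -1.57 ± 0.17 on the stiff matrix (adjusted p = 0.00185). It was called on both matrices in all 8 fits that each left out 1 library. With the length and GC offset the values were -1.36 and -1.45, both called. A fit of the stiff matrix alone gave -1.57 with an adjusted p = 0.0521. That fit called none of these genes, and the share of all genes it called is not given here. VEGFA lies on chromosome 6 at 43737921 to 43754224 on the plus strand (GRCh37), and most of its mRNA is untranslated, so a count over exons covers far more than its coding sequence.

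DDIT4 (REDD1), which restrains mTORC1 signalling under hypoxia and other stresses, fell on both matrices as well. It was at 46.0 and 38.5 CPM on the soft and 28.6 and 30.5 CPM on the stiff matrix at 2 days. After 4 days, levels were 18.7 and 18.5 CPM on the soft and 8.69 and 9.39 CPM on the stiff matrix. The 4 conditions did not overlap, and within each day the stiff matrix was the lower. The log2 fold change with time was -1.18 ± 0.14 (adjusted p = 0.00256) on the soft and -1.71 ± 0.15 (adjusted p = 0.00129) on the stiff matrix, called in all 8 fits without 1 library, and -0.87 and -1.54 with the length and GC offset, again called.

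NDRG1, a stress-induced growth inhibitor, was at 43.8 and 41.5 CPM on the soft and 32.5 and 37.3 CPM on the stiff matrix at 2 days. It was at 29.7 and 30.3 CPM on the soft and 22.1 and 25.8 CPM on the stiff matrix at 4 days. Like DDIT4, it was lower at 4 days and lower on the stiff matrix within each day, with smaller distances. It fell by 0.51 ± 0.14 (adjusted p = 0.0339) and 0.54 ± 0.14 (adjusted p = 0.0282) on the log2 scale, and was called in 2 of 8 fits without 1 library on each matrix. With the length and GC offset its log2 fold changes were -0.17 and -0.20 and no longer called.

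ADM encodes adrenomedullin, a vasodilator peptide. It was at 60.7 and 57.8 CPM on the soft and 78.4 and 61.3 CPM on the stiff matrix at 2 days, then at 76.6 and 70.6 CPM on the soft and 135 and 180 CPM on the stiff matrix at 4 days. The 4-day libraries of the stiff matrix stood above all others. The time effect was 1.17 ± 0.18 (log2, adjusted p = 0.00504) on the stiff matrix and 0.31 ± 0.18 (adjusted p = 0.235) on the soft matrix. The difference between these effects was 0.86 ± 0.26 with an adjusted p of 1, so a different response on the matrices was not shown. Without the first 4-day library on the stiff matrix that difference was 1.07 (adjusted p = 0.00199), and without the second it was 0.66 (adjusted p = 0.33). Among the 36 genes, ADM had the largest called rise on the stiff matrix, while VEGFA and DDIT4 fell there.

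BNIP3 and BNIP3L (NIX) encode related mitophagy receptors, and they behaved differently. BNIP3L was at 178 and 191 CPM on the soft and 158 and 159 CPM on the stiff matrix at 2 days, and at 291 and 301 CPM on the soft and 251 and 238 CPM on the stiff matrix at 4 days. The days did not overlap, and the log2 fold changes were 0.68 ± 0.12 (adjusted p = 0.00719) and 0.62 ± 0.12 (adjusted p = 0.00976). BNIP3L has a GC content of 37.4%, among the lowest of these genes, and with the length and GC offset its values were 0.11 and 0.18 and not called. BNIP3 ranged from 100 to 128 CPM at 2 days and from 98.4 to 140 CPM at 4 days and was not called. BNIP3 has 44 named pseudogenes in the annotation and BNIP3L shares exon sequence with PNMA2 on the other strand, so their counts carry that uncertainty.

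KDM3A, an oxygen-dependent histone demethylase, was at 52.2 to 65.2 CPM at 2 days, at 41.9 and 44.8 CPM on the soft matrix at 4 days, and at 40.8 and 24.1 CPM on the stiff matrix at 4 days. Its log2 fold change was -0.73 ± 0.23 (adjusted p = 0.0483) on the stiff matrix and -0.52 ± 0.23 (adjusted p = 0.127) on the soft matrix. With the length and GC offset both were called, at -0.77 and -0.65. It was called on the stiff matrix in 2 of 8 fits without 1 library, at -1.16 without the first and -0.41 without the second 4-day library of that matrix. CA12, a membrane carbonic anhydrase, had 4 to 14 counts per library and ANKRD37 had 4 to 20, which leaves counting error too large to show a moderate change, and neither was called.

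The promoters of genes that changed on the mean of both matrices are shown for DDIT4 and PFKFB4, the largest decreases with a single RefSeq promoter window, and for LDHB and ADM, the largest such increases. HIF dimers recognise a short core, here searched as ACGTG or GCGTG on both strands. The sequences are RefSeq's (GRCh38.p14 table), placed on GRCh37 by an exact match, and run over the 250 bases before the transcription start, 5' to 3' on the gene's strand. Capitals mark the cores.
DDIT4, chr10:74033432-74033681, plus strand: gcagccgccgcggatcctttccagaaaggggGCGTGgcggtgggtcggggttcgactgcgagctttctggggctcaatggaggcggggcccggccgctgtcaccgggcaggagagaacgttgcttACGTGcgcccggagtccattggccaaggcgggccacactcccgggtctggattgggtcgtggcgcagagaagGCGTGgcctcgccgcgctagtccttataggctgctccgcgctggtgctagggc
PFKFB4, chr3:48594237-48594486, minus strand: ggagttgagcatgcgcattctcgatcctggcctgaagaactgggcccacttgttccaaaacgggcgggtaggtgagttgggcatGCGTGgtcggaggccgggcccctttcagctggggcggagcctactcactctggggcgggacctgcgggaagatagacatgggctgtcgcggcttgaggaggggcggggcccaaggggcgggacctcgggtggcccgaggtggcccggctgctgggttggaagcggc
LDHB, chr12:21810777-21811026, minus strand: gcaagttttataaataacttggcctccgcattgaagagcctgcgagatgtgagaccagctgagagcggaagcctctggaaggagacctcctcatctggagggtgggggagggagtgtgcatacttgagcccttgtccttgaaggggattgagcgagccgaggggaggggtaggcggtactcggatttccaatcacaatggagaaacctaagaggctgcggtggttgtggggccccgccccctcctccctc
ADM, chr11:10326370-10326619, plus strand: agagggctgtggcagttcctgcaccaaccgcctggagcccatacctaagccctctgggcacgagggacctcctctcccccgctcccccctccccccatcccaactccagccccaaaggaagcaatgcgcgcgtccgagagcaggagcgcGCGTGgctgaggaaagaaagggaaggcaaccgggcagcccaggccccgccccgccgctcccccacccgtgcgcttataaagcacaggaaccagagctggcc

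Counting the start as position 1, the cores began at positions -219, -125 and -53 in DDIT4, -166 in PFKFB4 and -101 in ADM, while LDHB had none in these bases. In windows of 300 bases, which also take in the first 50 bases after the start, DDIT4 held 4 cores and LDHB 1 core. In such windows, 30 of the 32 genes of the set with a RefSeq promoter entry had at least 1 core in at least 1 window. Among all genes tested that had an entry, 69.3% of 10468 did, and 48.4% of all 35116 windows held one. By direction, a core was present in 5 of 5 genes that rose, 8 of 8 that fell and 16 of 17 that were not called. A core was so common in this set that its presence could not separate genes that rose from genes that fell or were not called. SLC2A3 and BNIP3L, which rose, and VEGFA and NDRG1, which fell, had no entry and are not among these counts. A core is a description of the letters and not a binding site.

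The carriers moved in different directions. SLC2A3 (GLUT3), a high-affinity glucose transporter, was at 24.1 and 29.3 CPM on the soft and 30.4 and 28.6 CPM on the stiff matrix at 2 days. At 4 days it was at 39.4 and 39.3 CPM on the soft and 41.4 and 39.7 CPM on the stiff matrix. The days did not overlap, and SLC2A3 rose by 0.56 ± 0.14 on the log2 scale (adjusted p = 0.0239) on the soft and 0.46 ± 0.14 (adjusted p = 0.046) on the stiff matrix. The values were 0.42 and 0.40 with the length and GC offset, both called, and on each matrix it was called in 2 of 8 fits without 1 library. SLC2A14, a near-identical copy of SLC2A3, went from 29 to 39 counts per library at 2 days to 0 to 3 counts at 4 days. The summed CPM of both was 25.3 to 31.6 at 2 days and 39.3 to 41.5 at 4 days. In counted reads the rise of SLC2A3 was thus larger than the copy's decrease. How reads that match both copies were counted was not tested.

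SLC2A1 (GLUT1), the widespread basal glucose transporter, ranged from 64.8 to 81.6 CPM at 2 days and from 55.9 to 63.9 CPM at 4 days. All 4-day libraries were lower, with log2 fold changes of -0.36 ± 0.14 (adjusted p = 0.0878) on the soft and -0.15 ± 0.14 (adjusted p = 0.461) on the stiff matrix, neither of them called. In FPKM, which is per gene length, SLC2A3 made up 21.6 to 29.3% of the sum of both transporters at 2 days and 36.4 to 39.7% at 4 days. The shares of the 2 days did not overlap, and SLC2A1 remained the more abundant in every library.

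SLC16A3 (MCT4), the carrier that exports lactate, was at 443 and 365 CPM on the soft and 370 and 370 CPM on the stiff matrix at 2 days. The 4-day libraries held 246 and 234 CPM on the soft and 205 and 285 CPM on the stiff matrix. It fell by 0.75 ± 0.18 (adjusted p = 0.0215) and 0.60 ± 0.18 (adjusted p = 0.0459) on the log2 scale, and was called in 2 of 8 fits without 1 library on each matrix. Without the first 4-day library of the stiff matrix its value there was -0.38 (adjusted p = 0.0301). SLC16A3 has the highest GC content of the set, 64.6%, and with the length and GC offset the values were -0.11 and -0.07 and not called. It also shares exon sequence with CSNK1D on the opposite strand. Of other carriers, SLC16A1 (MCT1), which moves lactate in either direction, went from 54.7 to 65.8 CPM at 2 days to 97.3 to 130 CPM at 4 days (mean of both matrices 0.97 ± 0.10 on the log2 scale, adjusted p = 0.000352).

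Several glycolytic enzymes were among the most abundant genes of the set. GAPDH had the highest FPKM of the 36 genes in every library, 2710 to 4140. TPI1 was at 746 to 1330 FPKM and ENO1 at 637 to 1040 FPKM, and on the stiff matrix at 2 days ENO1 was above TPI1 in both libraries. The 16 enzymes including both lactate dehydrogenase subunits made up 1.39 to 1.79% of all counts, with the lowest and the highest share in the pair of 4-day libraries from the stiff matrix. Of 14 enzymes upstream of lactate dehydrogenase, none rose and 3 fell on the mean of both matrices: PFKP, PFKL and ENO2. Of all genes tested, 24.3% were called higher and 21.9% lower there, so the decreases were called about as often as in any gene. None of these 14 was called higher on either matrix with TMM scaling alone, where 14.1% (soft) and 14.0% (stiff) of all genes were. No test of the missing increases was made.

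The phosphofructokinase genes encode the committed step of glycolysis. PFKP, the platelet-type isoform, was at 238 and 205 CPM on the soft and 235 and 237 CPM on the stiff matrix at 2 days, and at 146 and 154 CPM on the soft and 167 and 160 CPM on the stiff matrix at 4 days. It fell by 0.56 ± 0.13 (adjusted p = 0.018) and 0.53 ± 0.13 (adjusted p = 0.0214) on the log2 scale and was called in 2 and 5 of 8 fits without 1 library. PFKL, the liver-type isoform, fell by 0.33 ± 0.11 (adjusted p = 0.0388) as a mean over the matrices, and PFKM, the muscle type, was at -0.25 ± 0.10 (adjusted p = 0.0666). With the length and GC offset PFKP was at -0.22 and -0.21 and not called on either matrix, and PFKL turned to 0.28 on the stiff matrix with a call (adjusted p = 0.0311). PFKP remained the main isoform, with 45.7 to 54.5% of the summed FPKM of the 3 genes.

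ENO2, the neuron-type enolase, was at 94.5 to 111 CPM at 2 days and 66.6 to 84.5 CPM at 4 days, and its soft-matrix time effect was -0.49 ± 0.15 (log2, adjusted p = 0.0487). It was called there in 2 of 8 fits without 1 library and not with the length and GC offset. ENO1 carried most of the enolase FPKM, since ENO2 made up 3.19 to 6.04% of the sum of both. HK2, the inducible hexokinase and a HIF target, made up 8.19 to 9.60% of the sum of HK1 and HK2 in FPKM, with no shift between days.

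GAPDH, which the study used to normalise its RT-qPCR, ranged from 5120 to 5630 CPM at 2 days and from 5320 to 7940 CPM at 4 days. The highest value came from the second 4-day library of the stiff matrix, and the other 7 libraries lay between 5120 and 5860 CPM. Its time effect was 0.07 ± 0.21 (adjusted p = 0.82) on the soft and 0.26 ± 0.21 (adjusted p = 0.389) on the stiff matrix. The stiff-matrix value was 0.51 with a call (adjusted p = 0.00346) without the first 4-day library and -0.07 (adjusted p = 0.685) without the second. With the length and GC offset it was 0.36 and 0.39 on the log2 scale and called on both matrices, as were HK1 and HK2. PGAM1 ranged from 643 to 726 CPM at 2 days and from 710 to 895 CPM at 4 days. Its near-identical copy PGAM4 went from 53.0 to 66.6 CPM to 6.0 to 12.8 CPM, a log2 fold change of -2.86 ± 0.18 (adjusted p = 0.000114) on the mean of both matrices, and the sum of both was 702 to 793 CPM and 718 to 908 CPM. TPI1P3, a pseudogene of TPI1, went from 105 to 126 counts per library to 0 to 4 counts. How reads were divided between such copies at the 2 days was not tested.

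Lactate dehydrogenase is a tetramer of subunits that favour lactate formation (LDHA) or its oxidation (LDHB). LDHB was at 497 and 499 CPM on the soft and 574 and 542 CPM on the stiff matrix at 2 days. The 4-day values were 991 and 831 CPM on the soft and 873 and 1550 CPM on the stiff matrix. Every 4-day library lay above every 2-day library, and the log2 time effects of LDHB were 0.87 ± 0.25 (adjusted p = 0.0375) on the soft and 1.12 ± 0.25 (adjusted p = 0.0168) on the stiff matrix. The call held in 2 of 8 fits without 1 library on the soft matrix and in 6 of 8 on the stiff matrix, where the value was 1.47 without the first and 0.64 without the second 4-day library. With the length and GC offset it was 0.73 and 0.81, both called.

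LDHA was at 894 and 930 CPM on the soft and 822 and 804 CPM on the stiff matrix at 2 days, and at 1260 and 1210 CPM on the soft and 990 and 1000 CPM on the stiff matrix at 4 days. It was called higher on the soft matrix (0.44 ± 0.13, adjusted p = 0.0392) and not on the stiff matrix (0.29 ± 0.13, adjusted p = 0.126). With the offset it was at 0.06 and -0.04, and it kept its call on the soft matrix in 2 of 8 fits without 1 library. In FPKM, the LDHA to LDHB ratio was 1.13 and 1.17 on the soft and 0.898 and 0.929 on the stiff matrix at 2 days. It was 0.794 and 0.915 on the soft and 0.711 and 0.406 on the stiff matrix at 4 days. LDHB was thus the more abundant subunit in every library except those of the soft matrix at 2 days. Within each matrix, both 4-day libraries had a lower LDHA share than both 2-day libraries.

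**Figure D2:**
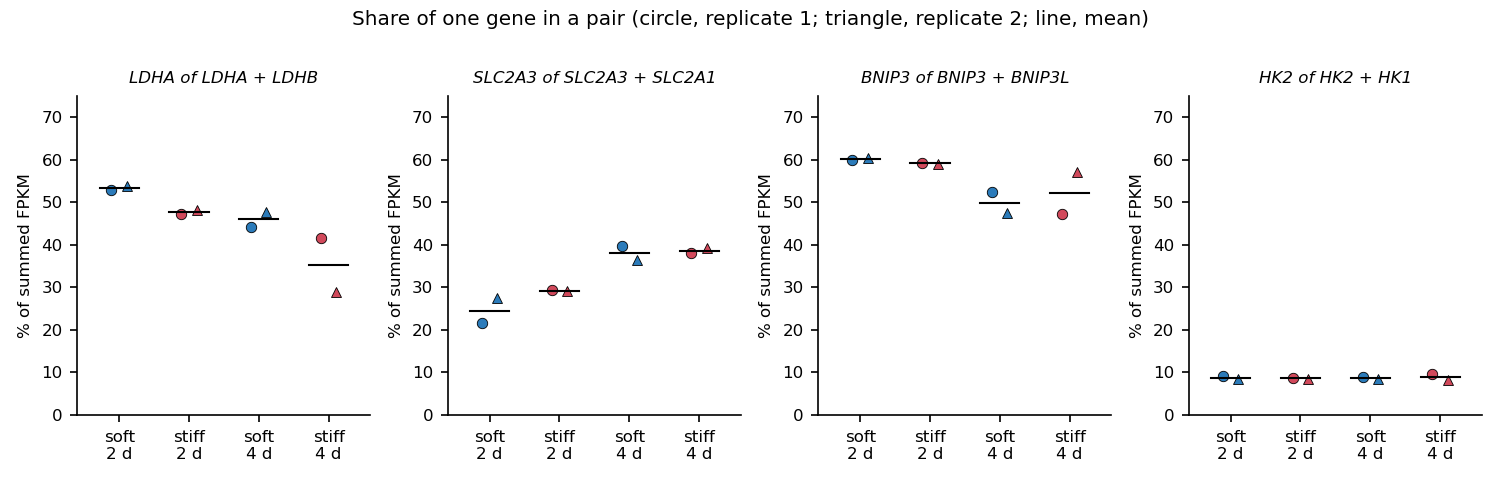
Share of the first gene in the summed FPKM of each of 4 gene pairs, in percent, by matrix and day; circles and triangles are the first and second library, blue is the soft and red the stiff matrix, and lines are means. The LDHA share goes from 53.0 and 53.9% to 44.3 and 47.8% on the soft matrix, the SLC2A3 share is higher in all 4-day libraries, and the HK2 share stays between 8.19 and 9.60%.

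Of the genes that set glycolytic flux, PFKFB4 and PFKFB3 make and break fructose 2,6-bisphosphate, the activator of phosphofructokinase. PFKFB4 was at 23.3 and 20.9 CPM on the soft and 17.2 and 18.3 CPM on the stiff matrix at 2 days, then at 12.9 and 13.2 CPM on the soft and 8.79 and 8.29 CPM on the stiff matrix at 4 days. As for DDIT4, the 4 conditions did not overlap and the stiff matrix was lower within each day. PFKFB4 fell by 0.76 ± 0.14 (adjusted p = 0.00839) and 1.06 ± 0.15 (adjusted p = 0.00338) on the log2 scale. It was called in 5 and 7 of 8 fits without 1 library, and with the offset at -0.50 and -0.78. It shares same-strand sequence with UCN2, which has its own row.

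PFKFB3, the isoform with the strongest kinase activity, was at 56.7 to 61.2 CPM at 2 days, 41.4 and 44.2 CPM on the soft matrix at 4 days, and 43.4 and 27 CPM on the stiff matrix at 4 days. It was called on the stiff matrix (-0.73 ± 0.21, adjusted p = 0.0386) and not with the offset (-0.37). Of the 8 fits without 1 library, 2 called it, at -1.11 without the first and -0.43 without the second 4-day library of the stiff matrix. PDK1, which inhibits pyruvate dehydrogenase and so keeps pyruvate out of the mitochondria, was at 16.9 and 17.6 CPM on the soft and 15.4 and 15.2 CPM on the stiff matrix at 2 days. At 4 days it was at 22.6 and 26.1 CPM on the soft and 18.1 and 15.3 CPM on the stiff matrix. It was called higher on the soft matrix (0.50 ± 0.15, adjusted p = 0.0441), in 2 of 8 fits without 1 library and not with the offset (0.20), and was at 0.13 ± 0.15 (adjusted p = 0.57) on the stiff matrix.

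**Figure D3:**
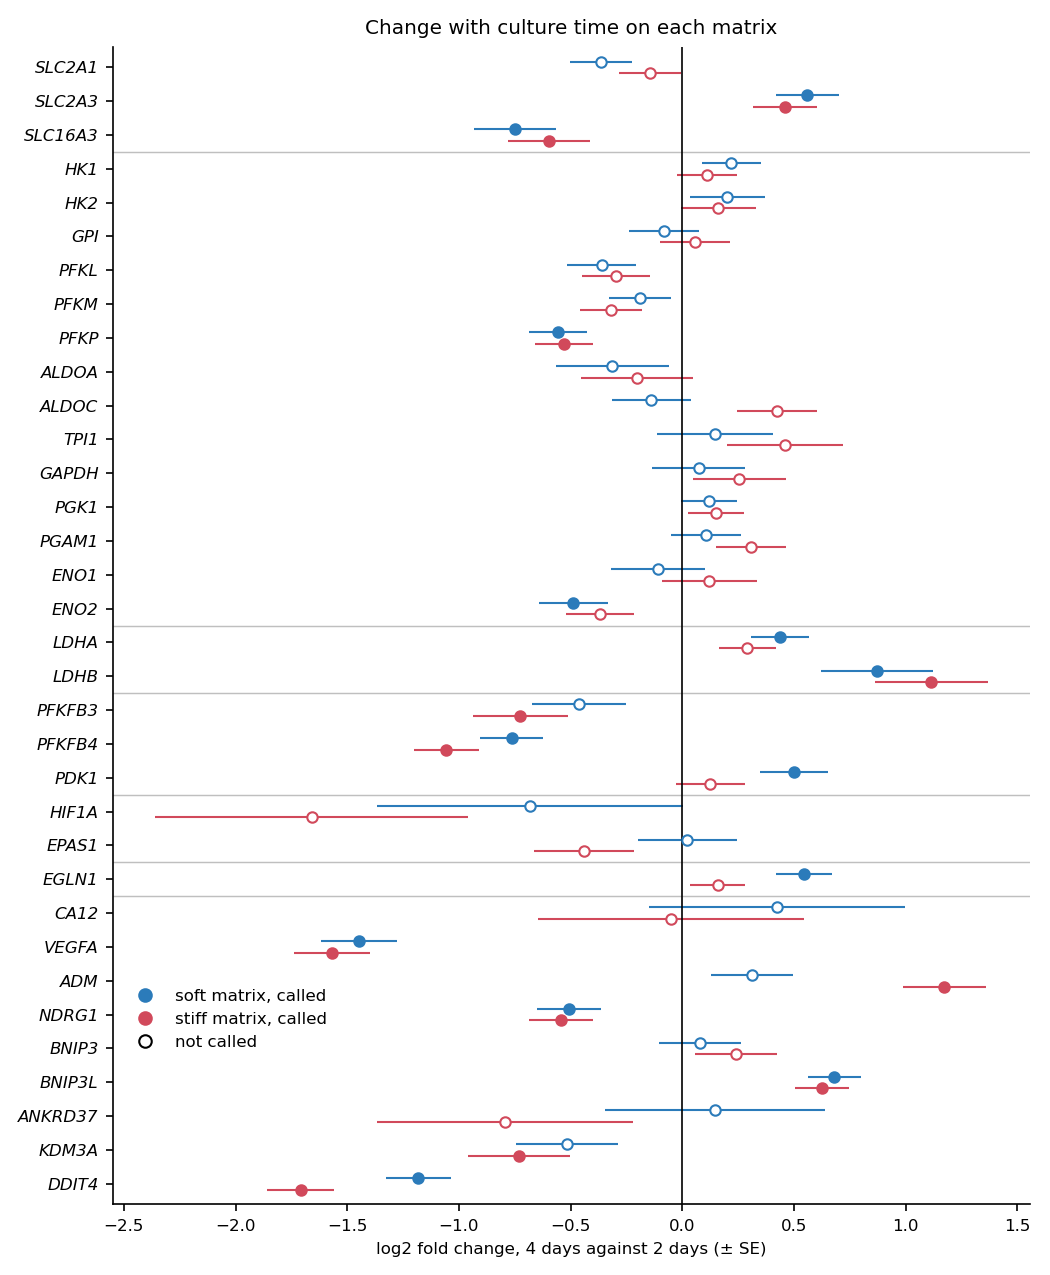
Log2 fold change from 2 to 4 days (x axis) with its standard error for the 34 tested genes, on the soft (blue) and the stiff (red) matrix; filled points were called by edgeR at an adjusted p-value under 0.05, open points were not, and grey lines separate carriers, enzymes, lactate dehydrogenase, flux regulators, HIF alpha subunits, the prolyl hydroxylase and other HIF targets. VEGFA and DDIT4 lie farthest to the left among called genes, at -1.45 and -1.18 on the soft and -1.57 and -1.71 on the stiff matrix, and the widest error bars belong to HIF1A, CA12 and ANKRD37.

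A second fit placed an offset on each library from its dependence on gene length and GC content; it was added after the data were seen. Over the 34 genes, the Spearman correlation of the mean time effect with GC content was -0.419 in the fit without the offset and 0.017 with it. In the fit with the offset, 11 genes rose and 8 fell on the mean of both matrices. The share of all genes called in that fit is not given here, so these counts have no background beside them. Of the 17 calls without the offset, 10 had the same direction in both fits. ADM, EGLN1, LDHB and SLC2A3 were called higher in both, and DDIT4, ENO2, KDM3A, PFKFB4, PFKP and VEGFA lower. PFKL changed from lower to higher. The calls of BNIP3L, LDHA, NDRG1, PDK1, PFKFB3 and SLC16A3 were lost, and ALDOC, GAPDH, HK1, HK2, PGAM1 and TPI1 were then called higher and BNIP3 and HIF1A lower. On each matrix taken alone, VEGFA, DDIT4 and PFKFB4 fell and LDHB and SLC2A3 rose in both fits. An offset of this kind also removes any change that goes along with GC content or length, and which fit is nearer to the cells' change was not tested.

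**Figure D4:**
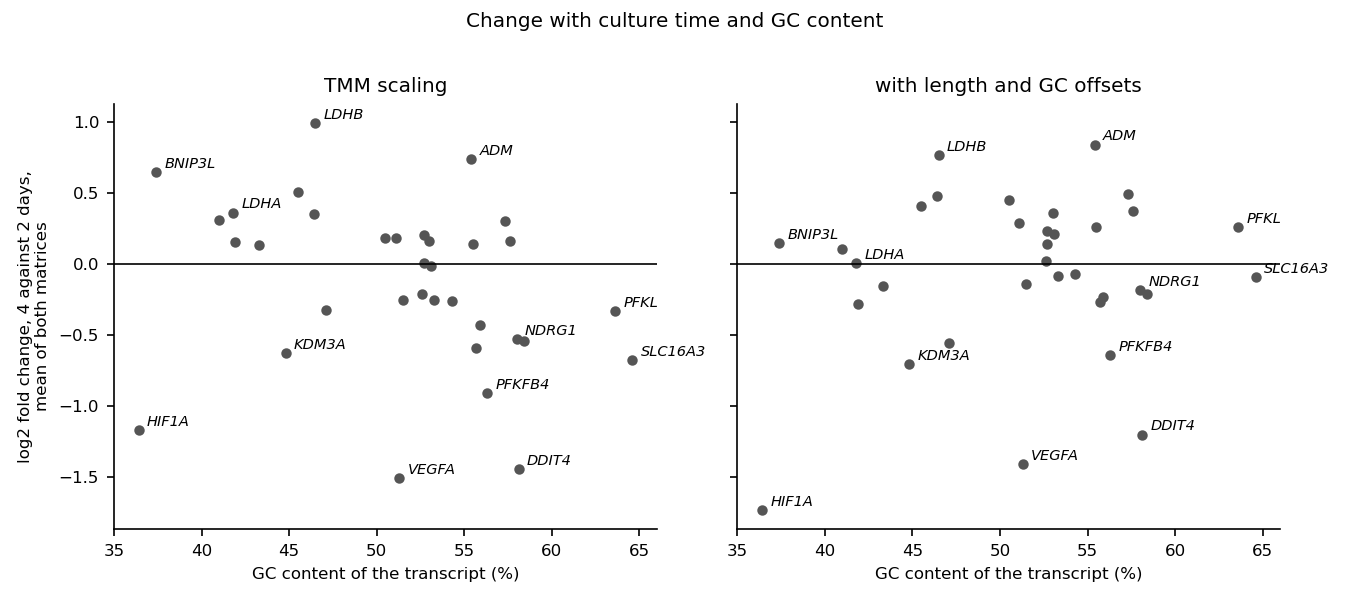
Log2 fold change from 2 to 4 days, mean of both matrices, against the GC content of the transcript for the 34 tested genes, with TMM scaling alone (left) and with length and GC offsets (right). SLC16A3 and PFKL at the right edge and BNIP3L and LDHA near the left edge move towards or across zero with the offset. HIF1A, with the lowest GC content (36.4%), moves the other way, from -1.17 to -1.73. VEGFA (-1.51 and -1.41), DDIT4 (-1.45 and -1.20) and LDHB (0.99 and 0.77) keep most of their change.

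The stiff and the soft matrix were compared at each day to ask which genes respond to stiffness. None of the 34 genes was called at 2 days, where 0.0% of all genes tested were. ALDOC and DDIT4, both lower on the stiff matrix, were under an unadjusted p of 0.05, and DESeq2 called ALDOC. The shares of all genes at that cutoff and by DESeq2 are not given here, so no background stands beside these genes. ALDOC, the brain-type aldolase and a known HIF target, was at 42.8 and 41.6 CPM on the soft and 19.1 and 22.1 CPM on the stiff matrix. Its log2 difference of -1.04 ± 0.18 was the largest of the set at 2 days and had an adjusted p of 0.545 by edgeR, and 0.00134 by DESeq2. Without the first 4-day library on the stiff matrix, which enters through the shared estimate of spread, edgeR gave ALDOC at 2 days an adjusted p of 5.48e-05, and without the second 7.10e-05. At 4 days ALDOC was at 39.5 and 37.2 CPM on the soft and 23.2 and 32.1 CPM on the stiff matrix, again without overlap.

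At 4 days, 0 of the 34 genes were called, where 0.247% of all genes tested were. At an unadjusted p under 0.05, ADM was higher on the stiff matrix, and ALDOC, DDIT4, EPAS1, LDHA, PDK1 and PFKFB4 were lower. DESeq2 called ADM and DDIT4. The shares of all genes at that cutoff and by DESeq2 are not given here, so these genes are named without a background. DDIT4 came nearest to the threshold with a log2 difference of -1.04 ± 0.15 (adjusted p = 0.0519), and ADM was at 1.10 ± 0.18 (adjusted p = 0.0917). How many of the 34 genes were called moved when either library of the stiff matrix was left out. The share of all genes called in those fits is not given here, so no background stands beside such counts. With the second left out, DDIT4 was at -1.09, ADM at 0.89 and ALDOC at -0.71. With the first left out, DDIT4 was at -0.98, ADM at 1.30 and ALDOC at -0.25. The size of the ALDOC difference thus depended on which library was kept. The median log2 difference between matrices was -0.07 at 2 days and -0.09 at 4 days over the 34 genes, and 0.01 and 0.02 over all genes.

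Whether the time effect differed between the matrices was tested as an interaction. It was called for 0 of the 34 genes and for 0.0% of all genes tested. ADM and DDIT4 were under an unadjusted p of 0.05, and DESeq2 called none of the 34 genes. The shares of all genes at that cutoff and by DESeq2 are not given here. For DDIT4 the time effect on the stiff matrix was lower by 0.53 ± 0.21 on the log2 scale, with an adjusted p of 1. The number called moved without the first 4-day library on the stiff matrix and not without the second. The share of all genes called in those fits is not given here, so no background stands beside such a count. The time effects on the 2 matrices use separate libraries and are given side by side. The comparisons at each day share no library, while the interaction uses all 8.

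The libraries from the stiff matrix at 4 days stood apart for these genes too. Their log2 difference had an SD of 0.702 over the 34 genes, against 0.118 to 0.245 in the other conditions. Among these genes it went along with gene length, with a Spearman correlation of -0.8 over 34 genes that share both libraries. ALDOA, TPI1, GAPDH, ENO1, LDHB and ANKRD37 were over 0.5 higher on the log2 scale in the second library, and PFKFB3, HIF1A, EPAS1, CA12 and KDM3A were over 0.5 lower. The first group holds short and the second longer transcripts. VEGFA, DDIT4, PFKFB4 and SLC2A3 differed by less than 0.5 between these libraries. The part of RNA quality or library preparation in this difference was not tested.

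**Figure D5:**
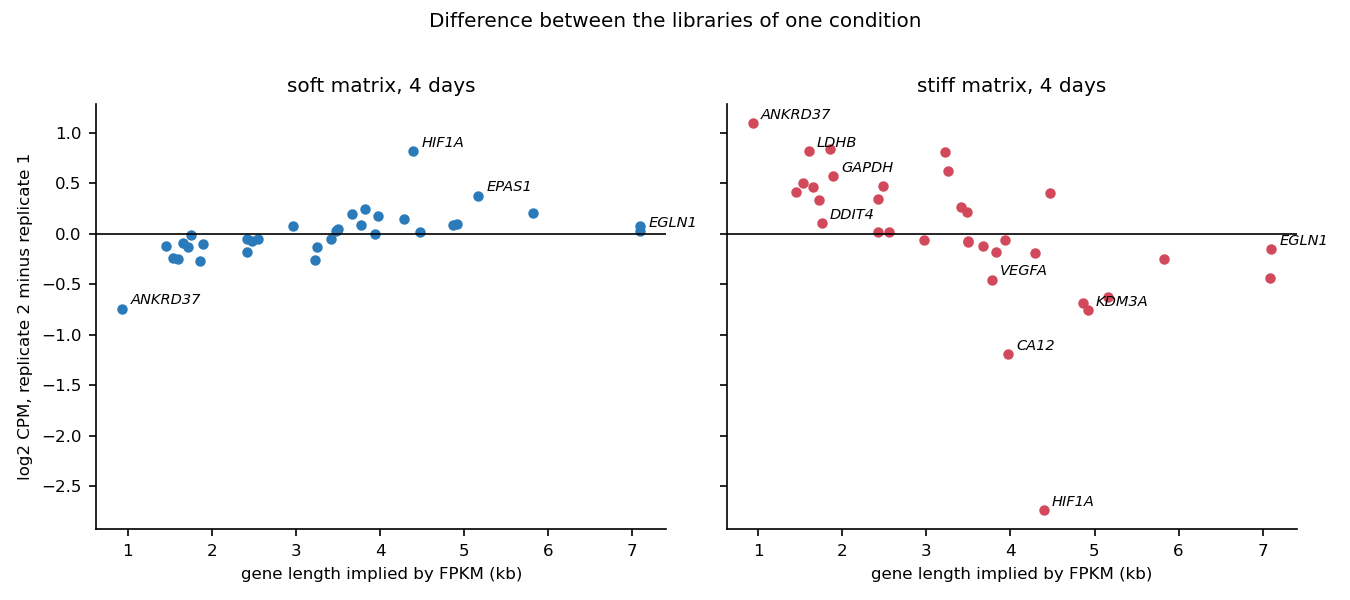
Log2 CPM of the second minus the first library for the 34 tested genes against the gene length implied by the FPKM, in kilobases, at 4 days on the soft (left, blue) and the stiff matrix (right, red). On the stiff matrix short genes such as LDHB and GAPDH lie above zero and longer genes such as KDM3A below it, with HIF1A the lowest point, while on the soft matrix the points lie closer to zero.

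Other genes of these pathways were taken from lists, and their counts are for the mean of both matrices, beside the same background of 24.3% higher and 21.9% lower. Of 13 other glycolysis genes tested, 4 rose and 2 fell. PKM, the pyruvate kinase of most tissues, ranged from 2600 to 2800 CPM at 2 days and from 2700 to 3420 CPM at 4 days, and its time effect was 0.21 ± 0.12 (log2, adjusted p = 0.166). GALM, which converts between the forms of galactose and glucose, rose by 1.19 ± 0.13 (adjusted p = 0.000427). PGAM4 and GAPDHS, copies of PGAM1 and GAPDH, were the decreases. Of 12 other carriers, 4 rose and 3 fell. Of 14 other flux regulators, 8 rose and 0 fell, among them PDP1 (0.96 ± 0.10, adjusted p = 0.000401) and PDHB (0.71 ± 0.11, adjusted p = 0.00179), which activate or form part of the pyruvate dehydrogenase complex, and TIGAR, listed as C12orf5, which lowers fructose 2,6-bisphosphate (0.83 ± 0.10, adjusted p = 0.000578).

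Of 11 further genes of the HIF machinery, 5 rose and 2 fell. The coactivators EP300 (-1.71 ± 0.25, adjusted p = 0.00139) and CREBBP (-0.85 ± 0.14, adjusted p = 0.00212) were the decreases. CITED2, a HIF target that competes for these coactivators, was at 103 to 129 CPM at 2 days, 209 and 198 CPM on the soft matrix at 4 days, and 284 and 328 CPM on the stiff matrix at 4 days (1.12 ± 0.10, adjusted p = 0.00021). ARNT was at -0.42 ± 0.16 (adjusted p = 0.061), and VHL rose by 0.30 ± 0.10 (adjusted p = 0.0386). Of 42 other HIF targets tested, 11 rose and 13 fell, shares near the background in the upward direction and above it in the downward direction, with no test of either. ANGPTL4, an inhibitor of lipoprotein lipase, went from 5.11 to 6.13 CPM to 0.864 to 0.992 CPM (-2.60 ± 0.17, adjusted p = 0.000114). HMOX1, heme oxygenase, went from 69.6 to 134 CPM to 19.4 to 26.0 CPM (-2.05 ± 0.12, adjusted p = 0.000114). FLT1, a receptor for VEGFA, rose by 1.37 ± 0.14 (adjusted p = 0.000325), from 13.9 to 18.2 CPM to 33.5 to 46.0 CPM, while its ligand fell. Known HIF targets thus went in both directions with culture time, inside and outside the set of 36.

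Summed stellate cell and fibroblast markers moved with day, from 1300 to 1760 FPKM at 2 days to 2250 to 3640 FPKM at 4 days. Most of this sum was VIM, at 921 to 1300 FPKM and then 1850 to 2940 FPKM, whereas COL1A1 was at 142 to 172 FPKM and then 83.9 to 125 FPKM. Of 9 such markers tested, 5 rose and 1 fell on the mean of both matrices, where 24.3% and 21.9% of all genes were called. ACTA2 was among the increases (0.91 ± 0.13 on the log2 scale, edgeR adjusted p = 0.00114). COL1A1 was the decrease (-0.52 ± 0.13, adjusted p = 0.0145). Summed proliferation genes went from 848 to 873 FPKM to 995 to 1100 FPKM, but they did not move together. Of 9 tested, 2 rose and 1 fell on the mean of both matrices. CDK1 (1.02 on the log2 scale) and PCNA (0.79) were higher, and MKI67 was lower (-0.48, edgeR adjusted p = 0.0456). In bulk RNA, a smaller share of cells expressing a gene cannot be told apart from less RNA per cell, and the part of these shifts in the time effects was not tested.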

How the data were processed

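RNA-seq of LX-2 cells on a soft or stiff hydrogel was analysed at 2 and 4 days, with 2 libraries per condition. According to the labels and the paper's methods, the authors trimmed paired-end reads with Trim Galore, aligned them to hg19 with STAR 2.7.1a under default settings, and made the deposited raw counts per gene with HTSeq. The annotation and the strand setting are not given in the sources used here. The deposited FPKM were made by the authors from the same counts, and a comparison of both tables showed that they are scaled by median-of-ratios size factors and by whole-number gene lengths. The labels and the paper name different sequencing instruments.

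Counts were tested in R 4.3.3 with edgeR 4.0.16. Of 25369 genes, 14570 passed filterByExpr. TMM-scaled counts of all 8 libraries were fitted with 4 condition means by the quasi-likelihood method, and p-values were adjusted by Benjamini-Hochberg over all genes tested. Each standard error was derived from the estimate and its F statistic. Alternatives used DESeq2 1.42.0, limma 3.58.1 on log2 FPKM, other scalings and filters, a replicate block and fits without 1 library. When a condition was left with 1 library, that library was assumed to vary like the others. The tests were checked on simulated counts. GC content and positions came from GENCODE on GRCh37 and promoters from RefSeq. Every gene of the set could be named, along with, from each other list, up to 3 of the largest called increases and decreases, and PKM, ARNT and VHL. The genes of the set and all lists were chosen with earlier results of these data known, so no set test was made.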

Additional observations from a re-analysis of the deposited data

Results flagged for a closer look

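ALDOC and EGLN1 moved in opposite directions between conditions in every library. The time effect of ALDOC was -0.14 on the soft and 0.42 on the stiff matrix, neither of them called, and the difference of these time effects was 0.56 on the log2 scale (edgeR adjusted p = 1, unadjusted p = 0.0558). Without the first 4-day library on the stiff matrix it was 0.79 (adjusted p = 0.00703), and without the second it was 0.33 (adjusted p = 0.829). EGLN1 differed between the matrices by 0.14 at 2 days and by -0.25 at 4 days, neither of them called, with a difference of -0.39 (adjusted p = 1, unadjusted p = 0.0588). With all 8 libraries neither difference passed the test across all genes.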

How the results depend on the processing

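Shares of all genes called are not given for any setting in this section, so its counts show only how the calls moved. Counts of genes called higher and lower on the soft matrix (6 and 7 as reported) changed by over 1.5 times as follows. The count of increases was 2 without scaling factors, 3 with limma on log2(FPKM + 1), on log2(FPKM + 0.1) and without a filter, and 0 with a change of at least 2-fold. The count of decreases was 13 with a separate fit, 12 with voom quality weights and 2 with at least 2-fold. On the stiff matrix (4 and 8) the separate fit called 0 and 0, limma without a filter 2 and 5, at least 2-fold 2 and 3, and the length and GC offsets 10 and 5. For the mean of both matrices (7 and 10), at least 2-fold left 0 and 2, and the offsets gave 11 increases. The stiffness comparison at 2 days (0) gave 1 call with DESeq2, 3 with a separate fit and 2 with voom. At 4 days (0) it gave 2 with DESeq2, 1 without scaling factors, without a filter or with limma on filtered FPKM, and 3 with the offsets. With the offsets, BNIP3 on the soft matrix turned to -0.31 (adjusted p = 0.0303) from 0.08 and PFKL on the stiff matrix to 0.28 from -0.30. The cause of these changes was not tested.

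With the replicate number as a block, time gave 2 and 3 calls (soft), 3 and 3 (stiff) and 6 and 9 (mean), and stiffness gave 0. The correlations of same-numbered deviations were -0.04 at 2 days, -0.49 at 4 days, 0.08 on the soft and 0.02 on the stiff matrix. They gave no clear pairing by number, although low correlations cannot exclude that same-numbered libraries shared an experiment. With the numbers crossed in the 4-day stiff libraries, the block gave 6 and 7, 4 and 9, and 7 and 11, and 2 calls between matrices at 4 days. That crossing, the offsets and voom were added after the data were seen.

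Without scaling factors the median of all genes on the stiff matrix moved from 0.03 to -0.10, and the medians of the set were lower too, at -0.106 (soft), -0.125 (stiff) and -0.114 (mean) with time, at -0.141 and -0.197 between matrices at 2 and 4 days, and at -0.0876 for the interaction. The next medians cover 36 genes with DESeq2, without a filter and with limma unfiltered, 32 with at least 10 counts and with filtered limma, and 34 otherwise, so they differ in the genes they hold. Medians for time on the soft matrix were 0.0294 with DESeq2, 0.0316 without a filter, -0.121 with at least 10 counts, -0.113 and -0.114 with limma, 0.017 with limma unfiltered and 0.0442 with the offsets. For the stiff matrix they were 0.0691 with DESeq2, 0.0626 without a filter, 0.0658 with at least 10 counts, 0.0508 and 0.051 with limma, -0.0507 with voom and -0.0309 with the crossed block. For the mean they were 0.0539 with DESeq2 and 0.0523 without a filter. Between matrices at 2 days they were -0.105 with at least 10 counts, -0.0435 with limma unfiltered and -0.0349 with the offsets. At 4 days they were -0.0519 and -0.0534 with limma, -0.0405 with limma unfiltered and -0.0539 with the offsets. For the interaction they were 0.0044 with at least 10 counts, 0.0042 and -0.0013 with limma and 0.0223 with the offsets.

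Leaving out 1 library at a time gave 0 to 7 increases and 2 to 13 decreases with time for the soft, 0 to 10 and 2 to 12 for the stiff matrix, and 4 to 12 and 6 to 14 for the mean. It gave 0 to 2 and 0 to 14 calls between matrices at 2 and 4 days, and 0 to 9 for the interaction. The medians ranged from -0.0996 to -0.0301, -0.1307 to 0.0456, -0.1128 to 0.0143, -0.1053 to -0.0451, -0.1251 to -0.0717 and -0.0654 to 0.0121 in that order. The separate fit gives no mean and no interaction. No time effect that was called on a single matrix with TMM scaling changed sign under the alternatives run, although many lost their call.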
